A study of Mus musculus with 6 samples.

Results

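Expression of 10 listed T and innate lymphoid genes was examined by RNA sequencing of mouse fetal liver at stage E14.5. The labels call the cells haematopoietic stem and progenitor cells. The genes were chosen by symbol, as CD3 chains, proximal kinases and lineage factors of T, NK and innate lymphoid cells. Of the 10, 8 were among the 12579 genes analysed, namely Cd3g, Cd3d, Lck, Zap70, Gata3, Tcf7, Nkg7 and Il2rb. Cd3e and Cd247, which encode the epsilon and zeta chains of the receptor complex, were not analysed here. There were 3 libraries from Prl2-/- cells and 3 from Prl2+/+ cells. Prl2 encodes a small protein tyrosine phosphatase and is listed under its symbol Ptp4a2. The labels give neither strain nor the cell type in which the gene was deleted. Whether the libraries stem from different embryos is not stated, so the spread behind each p-value may be partly technical.

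T cells, NK cells and innate lymphoid cells arise from lymphoid progenitors. In the fetus these progenitors form in the liver, and those that seed the thymus complete T cell development there. The T cell antigen receptor has no enzymatic activity of its own and signals through the CD3 chains, whose cytoplasmic tyrosines are phosphorylated by the kinase LCK and then bound by the kinase ZAP70. TCF1, the product of Tcf7, and GATA3 are transcription factors needed early in the T lineage and in innate lymphoid cells. NKG7 is a membrane protein of cytotoxic granules, and IL2RB is a chain shared by the receptors for interleukin 2 and interleukin 15. Several of these genes are also transcribed outside the T and NK lineages, and in bulk libraries a smaller number of cells of a type cannot be told apart from less RNA per cell.

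Libraries held 29525301 to 37026282 counts in Prl2-/- and 25965111 to 33613949 in Prl2+/+. Ptp4a2 had 44, 38 and 38 counts in Prl2-/- replicates 1 to 3, against 8088, 9906 and 8135 in Prl2+/+ replicates 1 to 3, so every library matched its genotype label. Stem and progenitor markers were found in both genotypes at very different levels. Kit, the stem cell factor receptor gene, had 204 to 229 CPM (counts divided by the library's total, on a common scale) in Prl2-/- and 190 to 244 CPM in Prl2+/+. Among 11 such markers, means over the 6 libraries ran from 0.496 CPM for Mecom to 248 CPM for Gata2. Libraries of the same genotype differed widely in their content of other cells. The summed level of 22 hepatoblast markers was 80.1, 3116 and 411 CPM in Prl2-/- replicates 1 to 3 and 5603, 1072 and 191 CPM in Prl2+/+ replicates 1 to 3. That of 10 B cell markers ran nearly the other way, at 419, 73.1 and 193 CPM in Prl2-/- and 110, 128 and 334 CPM in Prl2+/+.

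The 8 genes spanned a wide range of levels. On a scale of CPM per kilobase of exon (RPKM), Nkg7 was the highest by far, with 124 ± 13.7 RPKM in Prl2-/- cells, against 99.2 ± 4.23 RPKM in Prl2+/+ cells (mean ± SD over n = 3 libraries, as in all values of this form). Lck followed at 6.35 ± 3.95 RPKM in Prl2-/- and 4.88 ± 1.53 RPKM in Prl2+/+, and Tcf7 at 3.49 ± 0.247 RPKM in Prl2-/- and 3.80 ± 0.615 RPKM in Prl2+/+. The ranges of Lck and Tcf7 overlapped in each genotype, so their order was not resolved. Il2rb stood at 1.70 ± 0.119 RPKM in Prl2-/- and 1.44 ± 0.0842 RPKM in Prl2+/+, below both and above the remaining 4 genes in every library. In Prl2-/- Cd3g at 0.752 ± 0.314 RPKM lay above Cd3d at 0.599 ± 0.361 RPKM in every library, while Gata3 at 0.679 ± 0.0993 RPKM lay above both in replicates 1 and 2 and below both in replicate 3. In Prl2+/+ Gata3 at 0.658 ± 0.0511 RPKM lay above Cd3d at 0.365 ± 0.0653 RPKM in every library, while Cd3g at 0.491 ± 0.349 RPKM overlapped both. Zap70 was the lowest on average, at 0.272 ± 0.106 RPKM in Prl2-/- and 0.151 ± 0.0466 RPKM in Prl2+/+. By mean CPM, which reflects counts and not transcript number, Nkg7 ranked at the 77.6 percentile of all genes analysed. Zap70, Cd3g and Cd3d ranked at the 1.61, 2.37 and 2.45 percentiles, close to the level below which no gene was kept. Summed over the 8 genes, Nkg7 supplied 70.2% to 80.3% of counts in Prl2-/- libraries and 73.2% to 76.6% in Prl2+/+ libraries.

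**Figure D1:**
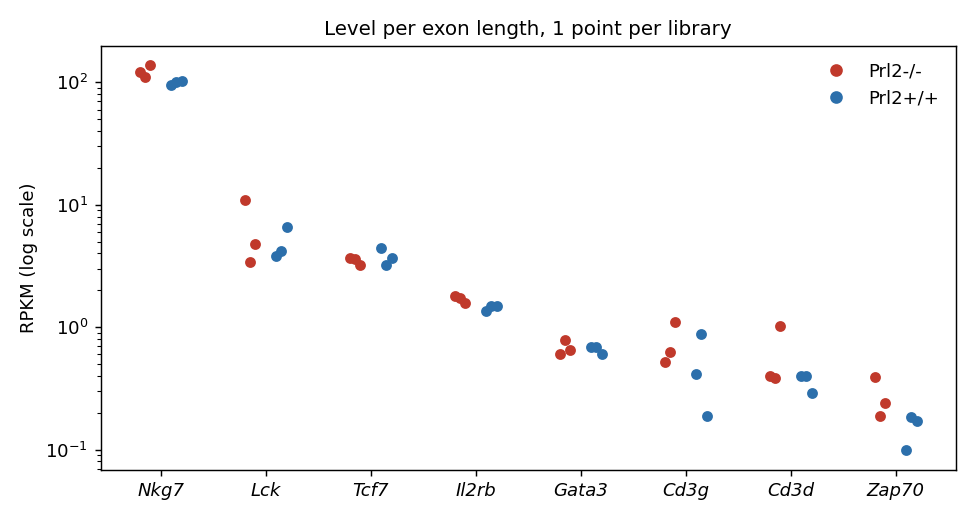
Level of each gene in each library in RPKM (CPM per kilobase of exon, log axis), with Prl2-/- libraries in red to the left of Prl2+/+ libraries in blue. Nkg7 lies at 94.4 RPKM or more in every library, and Cd3g, Cd3d, Gata3 and Zap70 lie near or below 1.

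None of the 8 genes passed the test between the genotypes. Across all genes, 5 of 12576 tested were called (edgeR quasi-likelihood test, Benjamini-Hochberg adjusted p under 0.05), or 0.0398%. DESeq2, limma-voom and the edgeR likelihood ratio test called 36, 4 and 21 of all genes and 0 of the 8. In each tool 1 of the 8, Nkg7, had an unadjusted p under 0.05. An unadjusted p under 0.05 was found for 4.6% of all genes in the edgeR quasi-likelihood test, and this share was not taken for the other tools. The estimate was above 0 for 7 genes and below 0 for Tcf7, against 49.8% of all genes above 0. The median log2 fold change of the 8 was 0.35, and that of all genes tested was -0.00067. Marker lists of other cell types also had most of their estimates on one side of 0, although no marker was called in edgeR. All 10 megakaryocyte markers were above 0, with a median of 0.30 and 1 unadjusted p under 0.05. Their summed level was 467, 382 and 314 CPM in Prl2-/- and 401, 270 and 265 CPM in Prl2+/+, with overlap. For B cells 9 of 10 were above 0 (median 0.27), for granulocyte-monocyte progenitors 7 of 10 (0.19), for stem and progenitor cells 9 of 11 (0.13) and for macrophages 6 of 8 (0.069). For hepatoblasts 22 of 22 were below 0 (median -1.16), and for mast cells and basophils 9 of 10 (-0.29). Erythroid markers, with 4 of 9 above 0, and endothelial and stromal markers, with 3 of 6, were divided. The part of these cells in the values of the 8 genes was not tested. For 3 of the 8, Nkg7, Il2rb and Zap70, all Prl2-/- libraries lay above all Prl2+/+ libraries, a pattern that 6.87% of all genes tested showed. The opposite pattern, seen in 4.56% of all genes, was met by 0 of the 8. Zap70 met the first pattern only narrowly, with 0.508 CPM in its lowest Prl2-/- library and 0.506 CPM in its highest Prl2+/+ library. The 2 listed genes with no values could not enter these counts, and a gene of very low level is kept only where enough libraries hold it, so neither the counts nor the median stand for all 10.

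**Figure D2:**
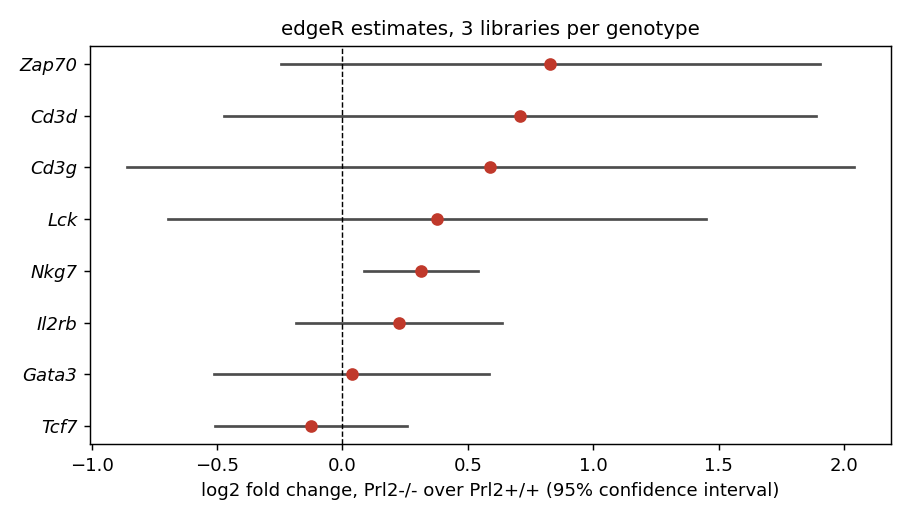
Log2 fold change of each gene, Prl2-/- over Prl2+/+, with its 95% confidence interval from edgeR (n = 3 libraries each). The interval of Nkg7 runs from 0.085 to 0.54 and lies above 0, and the other 7 intervals include 0.

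Of the CD3 chains, Cd3g and Cd3d were found at the edge of detection. They encode the gamma and delta chains, each of which pairs with the epsilon chain, and they lie back to back on chromosome 9 of GRCm38, Cd3g at 44969572 to 44980431 on the minus strand and Cd3d at 44981786 to 44987052 on the plus strand. Their annotated starts are 1355 bases apart. Cd3g had 19, 19 and 42 counts in Prl2-/- replicates 1 to 3, against 11, 30 and 5 in Prl2+/+ replicates 1 to 3. Cd3d had 19, 15 and 50 counts in Prl2-/-, against 14, 18 and 10 in Prl2+/+. The highest library of both was Prl2-/- replicate 3 and the lowest of both Prl2+/+ replicate 3, and for both genes the genotypes overlapped. The log2 fold change was 0.59 ± 0.61 (SE) for Cd3g, with a 95% interval of -0.86 to 2.04, and 0.71 ± 0.49 for Cd3d, with an interval of -0.47 to 1.89 (edgeR adjusted p = 0.899 for both). Single libraries moved both estimates. Without Prl2-/- replicate 3 they were 0.19 for Cd3g and 0.088 for Cd3d, and without Prl2+/+ replicate 2 that of Cd3g was 1.32 (edgeR adjusted p = 0.848). Both intervals include changes in either direction.

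The sequences around the starts of this pair are shown because the genes share a short intergenic stretch yet have different letters before each start. They are the RefSeq windows (GRCm38.p6) of 250 bases before to 50 after the start, written 5′ to 3′ on the strand of the gene. Capitals mark every match, on either strand, to 4 motifs chosen with the sequences in view. The core letters of RUNX sites were searched as TGTGGT. Those of GATA factors were searched as AGATAA. For ETS factors the letters were CAGGAAG, and for TCF and LEF factors they were CTTTGA. No pair of these matches overlapped.
Cd3g, chr9:44980382-44980681, minus strand: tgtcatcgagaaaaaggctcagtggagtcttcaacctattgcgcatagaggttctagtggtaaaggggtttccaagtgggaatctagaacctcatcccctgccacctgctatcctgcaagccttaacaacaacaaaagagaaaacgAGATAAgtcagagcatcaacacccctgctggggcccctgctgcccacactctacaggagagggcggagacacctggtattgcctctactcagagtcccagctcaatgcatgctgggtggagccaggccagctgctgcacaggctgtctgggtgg
Cd3d, chr9:44981536-44981835, plus strand: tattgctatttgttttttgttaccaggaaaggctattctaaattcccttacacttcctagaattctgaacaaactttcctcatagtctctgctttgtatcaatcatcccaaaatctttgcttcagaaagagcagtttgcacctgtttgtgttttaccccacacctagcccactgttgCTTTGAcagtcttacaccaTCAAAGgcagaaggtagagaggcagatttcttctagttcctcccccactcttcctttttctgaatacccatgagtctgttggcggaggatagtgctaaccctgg
The Cd3g window held a match to AGATAA, letters found in 11.2% of the 32851 mouse promoter windows searched. That of Cd3d held 2 matches to CTTTGA, found in 16.0% of windows, and none to the other motifs. A match describes the letters only. Windows were listed for 7 of the 8 measured genes, and Il2rb had no window. The windows of Gata3 and Tcf7 held no match to any of the 4 motifs. Of the windows of Zap70, 1 and 2 held matches and 3 held none.

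Lck, the SRC-family kinase that starts signalling at the T cell receptor, differed more between libraries of the same genotype than between the genotypes. It had 892, 233 and 406 counts in Prl2-/- replicates 1 to 3, or 24.9, 7.89 and 10.97 CPM, against 230, 322 and 396 counts in Prl2+/+ replicates 1 to 3, or 8.80, 9.58 and 15.3 CPM. Prl2-/- libraries included both the highest and the lowest of the 6, a 3.16-fold span, so that the Prl2+/+ range lay inside that of Prl2-/-. The log2 fold change was 0.38 ± 0.45 (SE), with a 95% interval of -0.69 to 1.45 (edgeR adjusted p = 0.904). Without Prl2-/- replicate 1 the sign turned, at -0.26 (edgeR adjusted p = 0.999). Leaving out any of the other 5 libraries gave estimates above 0, up to 0.68 without Prl2-/- replicate 2.

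The libraries stood in the same order by Lck as by the summed level of the B cell markers, from Prl2-/- replicate 1 through Prl2+/+ replicate 3, Prl2-/- replicate 3, Prl2+/+ replicate 2 and Prl2+/+ replicate 1 to Prl2-/- replicate 2. This order was noticed after the values were seen. Among 10 B cell markers, Cd79b, a signalling chain of the B cell receptor, had 93.4, 24.4 and 45.0 CPM in Prl2-/- and 32.6, 33.7 and 65.8 CPM in Prl2+/+. Vpreb1, a surrogate light chain gene of pre-B cells, had 40.0, 6.91 and 21.9 CPM in Prl2-/- and 9.49, 12.9 and 31.8 CPM in Prl2+/+. No marker of the list passed the edgeR threshold, and 9 of the 10 estimates were above 0. When the mean level of the B cell markers was added to the fit, a step decided on with the values known, the Lck estimate was 0.21 (edgeR adjusted p = 0.768). When the hepatoblast markers were added instead, it was -0.070 (edgeR adjusted p = 0.985). Cd79b was also among the 3 genes whose level across the 6 libraries was nearest to that of Lck. The root mean square difference of centred log2 CPM was 0.137 for Tifa, an adaptor of NF-kB signalling, 0.150 for Trp53i11 and 0.157 for Cd79b, over a range of 1.65 for Lck itself.

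Lck lies on chromosome 4 (129548344 to 129573641, minus strand), 247 kb from the start of the deleted gene Ptp4a2. Of 20 genes tested within 500 kb of it, Ptp4a2 was called and the other 19 were not, with 12 estimates above 0 and 7 below. Those 19 log2 fold changes ran from -0.13 to 0.20. Hdac1, a histone deacetylase gene and the nearest tested neighbour on one side, had 264, 255 and 274 CPM in Prl2-/- and 280, 274 and 275 CPM in Prl2+/+. Eif3i, a translation initiation factor gene on the other side, had 246, 224 and 203 CPM in Prl2-/- and 214, 211 and 210 CPM in Prl2+/+. Like Lck, Eif3i was highest in Prl2-/- replicate 1, as were Rnf19b, Yars, Rbbp4, Marcksl1, Txlna and Tmem39b. For Marcksl1 this was a near tie, with 151.83 CPM against 151.82 CPM in Prl2+/+ replicate 3. So it was for Txlna, with 208.6 CPM against 208.0 CPM in Prl2-/- replicate 3. Hdac1 and the remaining neighbours were highest in other libraries.

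**Figure D3:**
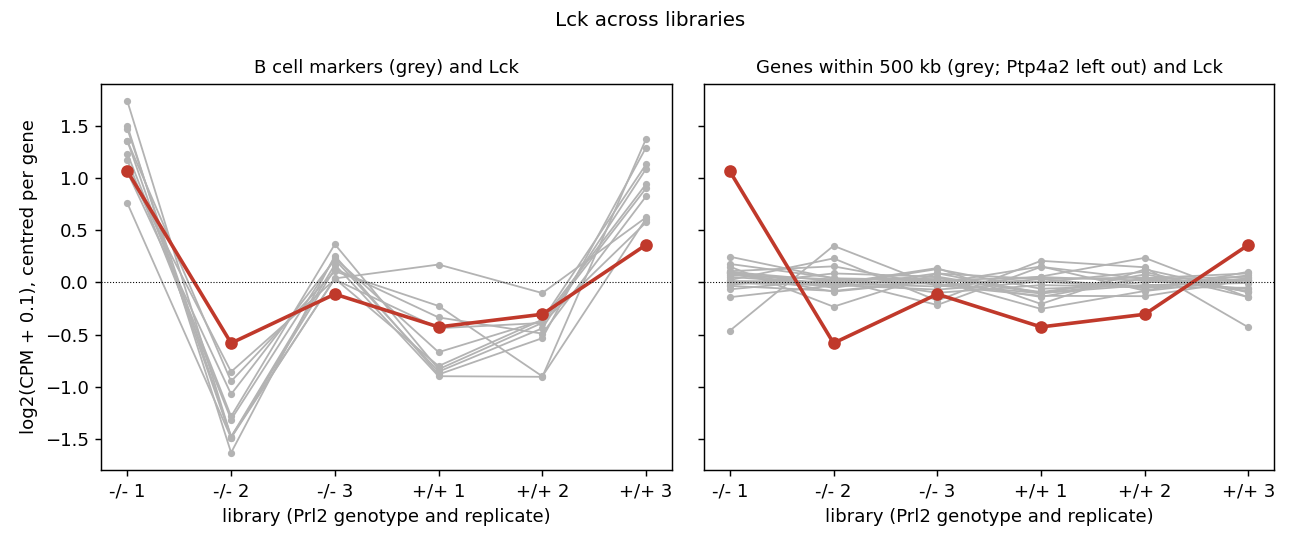
Log2(CPM + 0.1) of Lck (red) in each library, centred on its mean over the 6 libraries, beside 10 B cell markers (left, grey) and the 19 other tested genes within 500 kb of Lck apart from Ptp4a2 (right, grey). Lck and the summed B cell markers peak in Prl2-/- replicate 1 and reach their minimum in Prl2-/- replicate 2, while the neighbouring genes lie nearer to 0 in both of these libraries.

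The RefSeq table lists a pair of Lck starts 15.3 kb apart, and this gene is known for its distal and proximal promoters. Their windows are shown because the counts, taken per gene, do not tell their transcripts apart. Capitals mark the same motifs as above.
Lck, upstream start, chr4:129573592-129573891, minus strand: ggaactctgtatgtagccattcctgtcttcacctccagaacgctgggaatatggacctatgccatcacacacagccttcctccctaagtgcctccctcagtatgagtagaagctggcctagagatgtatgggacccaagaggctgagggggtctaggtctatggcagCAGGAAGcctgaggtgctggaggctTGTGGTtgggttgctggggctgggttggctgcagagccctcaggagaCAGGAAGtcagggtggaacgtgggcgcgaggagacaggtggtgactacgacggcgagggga
Lck, downstream start, chr4:129558323-129558622, minus strand: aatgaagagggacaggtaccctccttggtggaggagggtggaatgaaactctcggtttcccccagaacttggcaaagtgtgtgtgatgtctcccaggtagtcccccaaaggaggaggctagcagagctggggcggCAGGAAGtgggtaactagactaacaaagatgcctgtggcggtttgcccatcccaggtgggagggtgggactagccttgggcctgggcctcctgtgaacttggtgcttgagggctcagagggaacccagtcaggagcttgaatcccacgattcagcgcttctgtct
The upstream window held 2 matches to CAGGAAG and 1 to TGTGGT, and the downstream window 1 match to CAGGAAG. These letters occur in 13.3% (CAGGAAG) and 16.8% (TGTGGT) of all windows searched.

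Zap70, the kinase that docks on phosphorylated CD3 chains, was the member of lowest abundance. It had 38, 15 and 24 counts in Prl2-/- replicates 1 to 3, against 7, 17 and 12 in Prl2+/+ replicates 1 to 3. As CPM the groups did not overlap, but only narrowly, with 0.508 in the lowest Prl2-/- library and 0.506 in the highest Prl2+/+ library. The log2 fold change was 0.83 ± 0.45 (SE), the largest estimate of the 8, with a 95% interval of -0.24 to 1.90 (edgeR adjusted p = 0.899). Without Prl2-/- replicate 1 it was 0.47. Zap70 lies on chromosome 1 (36761798 to 36782820, plus strand), and the annotated pseudogene Gm18828 overlaps it on the other strand. As the library kit does not mark strand, their reads could not be separated where exons coincide.

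Tcf7 and Gata3, the transcription factors of the list, were at similar levels in both genotypes. Tcf7, on chromosome 11 (52252604 to 52282571, minus strand), had 293, 239 and 266 counts in Prl2-/-, or 8.18, 8.09 and 7.18 CPM. In Prl2+/+ it had 261, 244 and 215 counts, or 9.98, 7.26 and 8.28 CPM. The groups overlapped, and the log2 fold change was -0.13 ± 0.16 (SE), with a 95% interval of -0.51 to 0.26 (edgeR adjusted p = 0.904). Leaving out each library in turn gave estimates of -0.23 to -0.0023, the one nearest 0 without Prl2+/+ replicate 1. The annotated genes Gm26551, on the same strand, and A630014C17Rik, on the opposite strand, overlap Tcf7, so its counts are uncertain to that extent.

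Gata3, on chromosome 2 (9857078 to 9878600, minus strand), had 69, 75 and 77 counts in Prl2-/-, or 1.93, 2.54 and 2.08 CPM, against 58, 74 and 50 counts in Prl2+/+, or 2.22, 2.20 and 1.93 CPM. Its values spanned 1.32-fold from lowest to highest library and those of Il2rb 1.33-fold, the smallest spans of the 8, and their order was not resolved. The log2 fold change was 0.038 ± 0.230 (SE), with a 95% interval of -0.51 to 0.59 (edgeR adjusted p = 0.978). The antisense gene Gm13256 overlaps Gata3 on the other strand.

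Nkg7 had the smallest p of the 8 genes. It had 3545, 2665 and 4161 counts in Prl2-/- replicates 1 to 3, or 99.0, 90.3 and 112 CPM, against 2007, 2751 and 2164 counts in Prl2+/+ replicates 1 to 3, or 76.8, 81.8 and 83.3 CPM. All 3 Prl2-/- libraries lay above all 3 Prl2+/+ libraries. The log2 fold change was 0.31 ± 0.095 (SE), with a 95% interval of 0.085 to 0.54, an unadjusted p of 0.0143 and an edgeR adjusted p of 0.899, so the difference did not pass over all genes. Its p ranked 141 among 12576 genes. Leaving out each library in turn gave estimates of 0.22 to 0.39. In mouse marrow Nkg7 transcripts are also known from early myeloid progenitors. Granulocyte-monocyte progenitor markers, 10 genes, summed to 20517, 17771 and 19895 CPM in Prl2-/- libraries, against 15681, 16357 and 18858 CPM in Prl2+/+ libraries, so these ranges overlapped. Most of that sum was Mpo, the myeloperoxidase gene, with a mean of 12012 CPM. Of the 10 genes, 7 had estimates above 0 and 3 below. Without overlap between genotypes, Ms4a3 and Cebpa lay higher in Prl2-/- and 0 lay lower, beside 6.87% and 4.56% of all genes tested. Ms4a3, a membrane protein gene of these progenitors, had 802, 705 and 695 CPM in Prl2-/- and 616, 622 and 658 CPM in Prl2+/+ (log2 fold change 0.21, unadjusted p = 0.0250, edgeR adjusted p = 0.899). Cebpa, a transcription factor gene of the myeloid lineage, had 40.9, 31.1 and 32.2 CPM in Prl2-/- and 28.6, 27.9 and 29.5 CPM in Prl2+/+ (0.27, edgeR unadjusted p = 0.0554, edgeR adjusted p = 0.899). Elane, the neutrophil elastase gene, overlapped but had an estimate of 0.52 (unadjusted p = 0.0459, edgeR adjusted p = 0.899). These 3 were named after their values were seen. The estimates below 0 were those of Gstm1 (-0.28), Cebpe (-0.14) and Calr (-0.0023). The sum of 10 mast cell and basophil markers was 1027, 1496 and 1498 CPM in Prl2-/- and 1479, 1682 and 1288 CPM in Prl2+/+. Their part in the level of Nkg7 was not tested. Over the 6 libraries, the genes nearest to the profile of Nkg7 were Galnt11, Ccdc116 and Smim5, at root mean square differences of 0.026, 0.040 and 0.047 in centred log2 CPM, among 11795 genes searched.

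The window at the start of Nkg7 is shown because this gene carried most of the counts of the group.
Nkg7, chr7:43436888-43437187, plus strand: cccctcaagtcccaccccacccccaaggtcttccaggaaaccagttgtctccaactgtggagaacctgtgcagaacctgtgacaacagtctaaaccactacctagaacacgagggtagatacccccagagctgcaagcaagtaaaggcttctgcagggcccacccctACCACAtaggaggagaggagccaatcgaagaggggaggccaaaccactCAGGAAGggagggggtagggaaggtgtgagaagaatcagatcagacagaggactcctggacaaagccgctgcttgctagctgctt
It held 1 match to the reverse complement of TGTGGT and 1 match to CAGGAAG, and none to AGATAA or CTTTGA. Nkg7 itself spans 43437138 to 43438246 on chromosome 7.

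Il2rb, on chromosome 15 (78480549 to 78495066, minus strand), stood slightly higher in Prl2-/- in every library, without passing the test. It had 173, 138 and 156 counts in Prl2-/-, or 4.83, 4.67 and 4.21 CPM, against 95, 136 and 104 counts in Prl2+/+, or 3.63, 4.05 and 4.01 CPM. The log2 fold change was 0.23 ± 0.17 (SE), with a 95% interval of -0.19 to 0.64 (edgeR adjusted p = 0.899). The gamma chain that pairs with it, encoded by Il2rg, had 195 to 211 CPM in Prl2-/- libraries and 186 to 204 CPM in Prl2+/+ libraries, and its estimate was 0.054 ± 0.063 (edgeR adjusted p = 0.904).

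**Figure D4:**
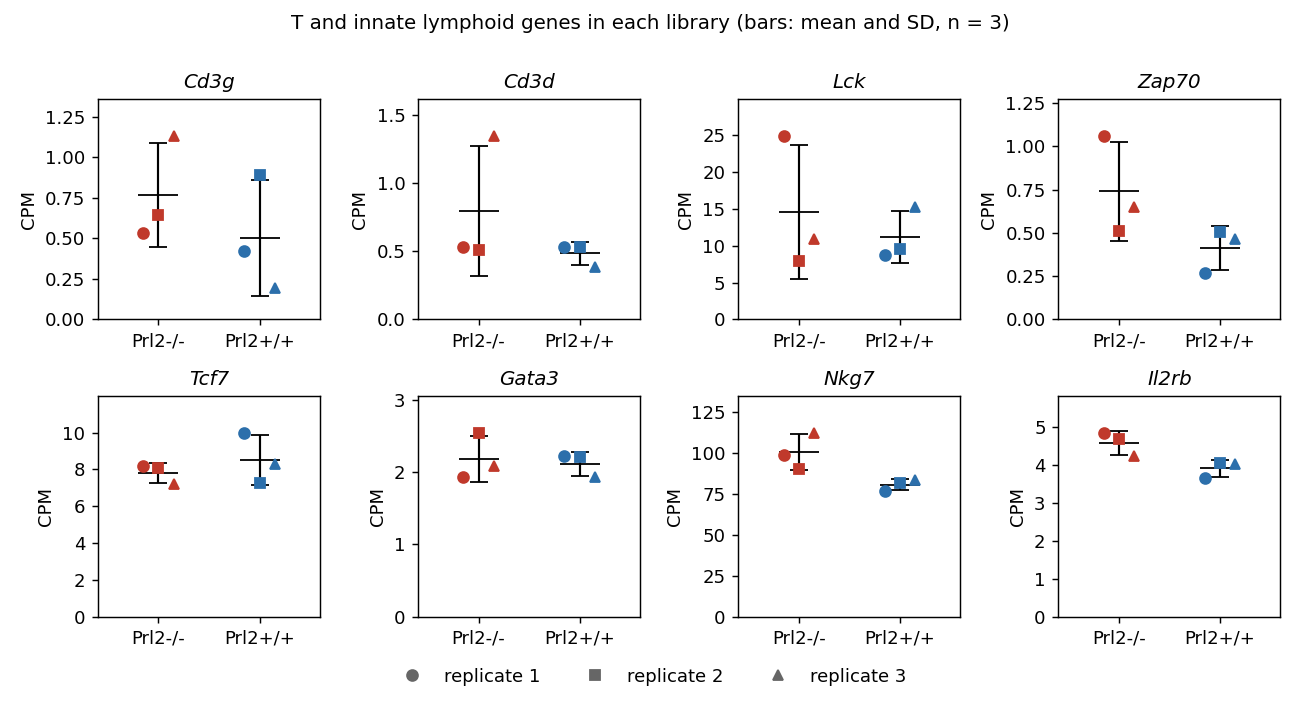
CPM of the 8 genes in each library (shapes mark replicates 1 to 3), Prl2-/- in red left of Prl2+/+ in blue, with the mean and SD of 3 libraries. Nkg7, Il2rb and, only narrowly, Zap70 do not overlap between genotypes, and Lck is highest in Prl2-/- replicate 1.

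Genes that act with the 8 were read from 6 lists, 126 different genes tested in all. In edgeR 0 were called, beside 0.0398% of all genes tested. An unadjusted edgeR p under 0.05 was found for 6 of the 126, beside 4.6% of all genes tested. Without overlap between genotypes, 8 were higher and 6 lower in Prl2-/-, beside 6.87% and 4.56% of all genes tested. Of 28 T cell surface and antigen receptor genes, 13 were tested; the other 15, among them Cd4, Cd8a, Cd5, Thy1 and the constant regions of the T cell receptor, were not analysed here. Their median log2 fold change was 0.059, with 8 estimates above 0 and 5 below. The smallest p was that of Cd96, a receptor of T and NK cells, at 12.3 ± 0.302 CPM in Prl2-/- libraries and 8.84 ± 2.29 CPM in Prl2+/+ libraries (log2 fold change 0.47 ± 0.21 (SE), edgeR adjusted p = 0.899).

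Of 29 genes of T cell receptor proximal signalling, 27 were tested, with a median of -0.0088, 13 estimates above 0 and 14 below. Ptpn6, the phosphatase SHP1 of all haematopoietic cells, had the highest mean CPM of the list, with 512 ± 65.9 CPM in Prl2-/- libraries and 513 ± 42.6 CPM in Prl2+/+ libraries. Lat, the membrane adaptor phosphorylated by ZAP70, had 22.6, 20.4 and 20.6 CPM in Prl2-/- and 17.7, 20.3 and 17.0 CPM in Prl2+/+, with no call (log2 fold change 0.20 ± 0.11 (SE), edgeR adjusted p = 0.899); it was named after its values were seen.

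Of 33 NK and cytotoxic genes, 19 were tested, and 15 of the 19 estimates were below 0, with a median of -0.11. Sh2d1b1, an adaptor of SLAM-family receptors in NK cells, had the smallest p and lay higher, at 19.7 ± 3.17 CPM in Prl2-/- libraries and 12.7 ± 2.12 CPM in Prl2+/+ libraries (log2 fold change 0.62 ± 0.17 (SE), edgeR adjusted p = 0.899). Fcer1g, a signalling chain shared by NK and myeloid cells, had the highest mean CPM of the list, with 289 ± 37.03 CPM in Prl2-/- libraries and 310 ± 31.8 CPM in Prl2+/+ libraries. Ncr1, Klrb1c, Prf1 and Ifng, genes typical of mature NK cells, were not analysed here.

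Of 35 innate lymphoid genes, 24 were tested, with a median of -0.16 and 16 estimates below 0. Nfil3, a transcription factor needed for the earliest innate lymphoid precursors and also active in myeloid cells, had the smallest p and lay lower, at 48.5, 46.9 and 54.5 CPM in Prl2-/- and 62.8, 59.0 and 60.2 CPM in Prl2+/+. Its log2 fold change was -0.28 ± 0.075 (SE; edgeR adjusted p = 0.899). Kit had the highest mean CPM of this list. Il7r, the interleukin 7 receptor of lymphoid progenitors, had 579, 231 and 518 counts in Prl2-/- and 379, 371 and 574 counts in Prl2+/+, with overlapping groups (log2 fold change -0.33 ± 0.34, edgeR adjusted p = 0.899); it was named after its values were seen.

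Of 34 Notch and early T lineage factors, 30 were tested, with a median of 0.036 and 18 estimates above 0. Runx3, a RUNX factor of cytotoxic and innate lymphoid cells, had the smallest p, at 55.1 ± 1.98 CPM in Prl2-/- libraries and 46.0 ± 5.12 CPM in Prl2+/+ libraries (log2 fold change 0.26 ± 0.096 (SE), edgeR adjusted p = 0.899). Gata2, a factor of progenitors and mast cells, had the highest mean CPM of the list, with 246 ± 29.4 CPM in Prl2-/- libraries and 250.4 ± 21.1 CPM in Prl2+/+ libraries. Of 20 common gamma chain receptor and kinase genes, 17 were tested, with a median of -0.028. Stat5a had the smallest p, at 66.8 ± 3.30 CPM in Prl2-/- libraries and 59.6 ± 2.22 CPM in Prl2+/+ libraries (log2 fold change 0.16 ± 0.067 (SE), edgeR adjusted p = 0.899), and Jak1 had the highest mean CPM of the list, with 329 ± 29.8 CPM in Prl2-/- libraries and 352 ± 5.18 CPM in Prl2+/+ libraries.

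**Figure D5:**
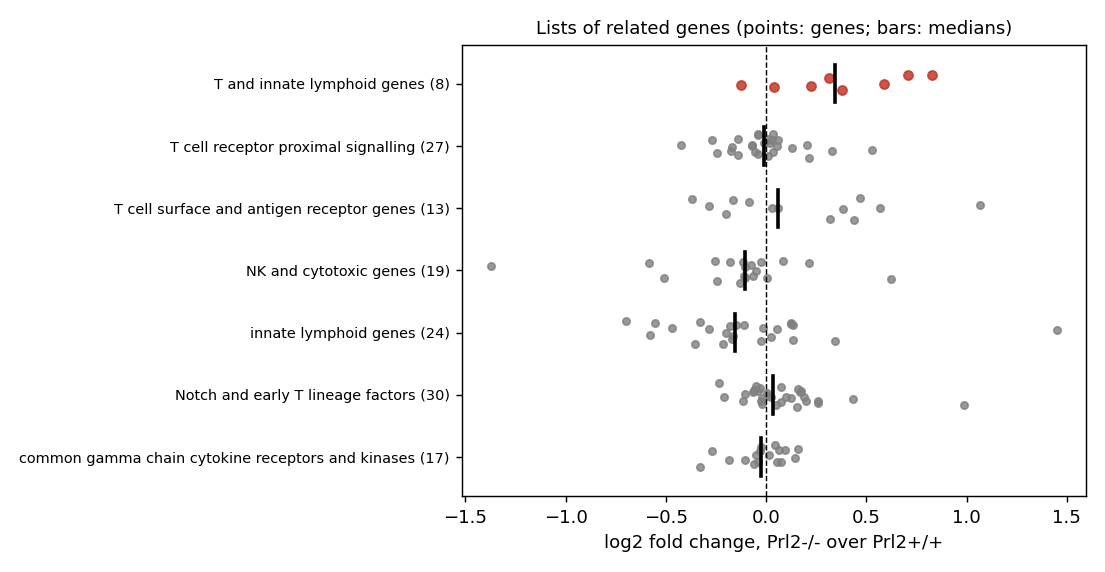
Log2 fold change, Prl2-/- over Prl2+/+, of the 8 T and innate lymphoid genes (red) and of the tested genes of 6 related lists (grey), with the number tested in brackets and the median as a bar. The median of the 8 is 0.35, and the medians of the related lists lie between -0.16 and 0.059.

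The 8 genes did not vary across libraries as a single unit. Cd3g, Cd3d and Nkg7 were highest in Prl2-/- replicate 3, Lck, Zap70 and Il2rb in Prl2-/- replicate 1, Gata3 in Prl2-/- replicate 2 and Tcf7 in Prl2+/+ replicate 1. Some of these peaks are uncertain. Cd3g, Cd3d and Zap70 rest on 5 to 50 counts a library and Gata3 on 50 to 77, which also limits the ratios below. Il2rb had 4.83 CPM in Prl2-/- replicate 1 against 4.67 CPM in replicate 2. The ratio of Lck to Zap70 counts ran from 15.5 to 23.5 in Prl2-/- and from 18.9 to 33 in Prl2+/+, and that of Lck to Cd3d counts from 8.12 to 47.0 in Prl2-/- and from 16.4 to 39.6 in Prl2+/+. The ratio of Nkg7 to Il2rb counts was steadier, at 19.3 to 26.7 in Prl2-/- and 20.2 to 21.1 in Prl2+/+. That of Nkg7 to Mpo, a granulocyte-monocyte progenitor marker, was also steady, at 0.00724 to 0.00846 in Prl2-/- and 0.00655 to 0.00777 in Prl2+/+. The gene nearest in profile to Cd3d was Nr4a1, an immediate early gene induced by antigen receptor signals among other stimuli, at a root mean square difference of 0.217. Nearest to Cd3g was Ppp1r9a at 0.324, to Zap70 Zfp551 at 0.188, to Tcf7 Tgoln1 at 0.044, to Gata3 Yipf6 at 0.035 and to Il2rb Srrd at 0.025. The mean profile of the 8 was nearest to 1110034G24Rik at 0.042. These differences are descriptions over 6 libraries.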

How the data were processed

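The deposited table holds raw counts per gene for 6 libraries, per the file headers. Per the labels' protocols, libraries were made from 1 ng of total RNA with a template-switching cDNA kit and transposon tagmentation. The submitters' processing notes name STAR and featureCounts, with no version; the genome build is not given in the sources used here. Of 12135 symbols shared with GENCODE M21 (GRCm38), 12126 overlapped the annotated position. All genes reached a CPM of 0.2 in 3 or more libraries, so the deposited table had been filtered. No library pair was identical or agreed within sampling noise (chi-square per gene at least 19.7).

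Counts were tested with edgeR 4.0.16 (R 4.3.3; filterByExpr, TMM, quasi-likelihood F test, Benjamini-Hochberg over 12576 genes). SE was obtained from the log2 fold change and the F statistic. CPM and RPKM use the table's totals and exon lengths. The edgeR steps were tested on simulated data. Members and lists were chosen with earlier results of these data known. The text names every measured member, in each related list the gene of smallest p and the most abundant, the genes of nearest profile (mean CPM of at least 1, prior count of 2), and Ptp4a2; other genes are examples. In 2 lists, 1 gene that this rule names is not reported here. Alternatives used limma 3.58.1 and DESeq2 1.42.0.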

Additional observations from a re-analysis of the deposited data

How the results depend on the processing

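The call of 0 members held under all 18 alternatives (5 members tested under the stricter filter, 8 under the others), with the lowest adjusted p of any member at 0.465, and 136 of 141 member estimates kept their direction. Against 5 genes called in all, DESeq2 called 36, the likelihood ratio test 21, the replicate block 1 and the fit without the most hepatoblast-rich library of each genotype 1; leaving out 1 library gave 3 to 4, with 3 without Prl2-/- replicate 1 or 3 or Prl2+/+ replicate 1 or 2. The median log2 fold change of 0.35 became 0.22 with the stricter filter (CPM of at least 1 in 3 libraries, which drops Cd3g, Cd3d and Zap70), 0.27 with the replicate block, 0.24 with the hepatoblast covariate, 0.26 with the B cell covariate (added after the data were seen) and 0.44 without the most hepatoblast-rich libraries. Leaving out 1 library gave 0.21 to 0.53, the lowest without Prl2-/- replicate 3 and the highest without Prl2-/- replicate 2. The sign turned for Lck with the hepatoblast covariate (-0.070) and for Gata3 without the most hepatoblast-rich libraries (-0.050); leaving out 1 library gave -0.26 to 0.68 for Lck and -0.080 to 0.12 for Gata3. The cause was not tested. Deviations from the genotype mean correlated at -0.638, 0.209 and 0.174 between same-numbered libraries. Other pairs of libraries ran from -0.813 to 0.745. Because the content of other cells differed widely between libraries, these values cannot decide whether replicate numbers pair them. Cd3g, Cd3d and Zap70 rest on 5 to 50 counts a library; Lck, at 230 to 892, had an SE as large as that of Zap70 (0.45 for both).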
